A study of Mus musculus with 2 samples.

Results

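The genes described here are the membrane transporters that carry sugars, monocarboxylates, nucleosides and organic anions in mouse peritoneal macrophages, read on 1 Agilent array of MeXis null cells and 1 of WT cells. They were taken by gene name, as every probe named for a member of the Slc2, Slc5, Slc10, Slc13, Slc16, Slc22, Slc28, Slc29 or Slco families. This gave 96 genes of the 37008 gene names on the array, read by 166 probes at 175 spots. The Slco family supplied 15 of the genes, and its member Slco2b1 was singled out with its value already known, so that its level is given as a description.

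The MeXis null group was RNA of macrophages taken from the peritoneal cavity of mice without the long noncoding RNA MeXis, and the WT group was RNA of the same cells from wild-type mice. The strain of both was given as bl6, both were kept in DMEM with serum and antibiotics, and no ligand or other treatment was named for either. Each array held RNA pooled from 3 samples. With 1 array per genotype there was no replicate array and no test of genotype, so every difference below is between these 2 arrays, as a log2 value of MeXis null minus WT. How the MeXis allele was made, and the age and sex of the mice, are not given in the sources used here.

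Solute carriers move small hydrophilic molecules across membranes that are otherwise closed to them. The Slc2 facilitators let glucose and related sugars run down their gradient, the Slc5 carriers couple sugars, inositol and vitamins to sodium, and the Slc16 carriers move lactate, pyruvate or aromatic amino acids. Slc28 and Slc29 proteins take up nucleosides, with and without sodium. Slc22 and Slco proteins handle carnitine, organic cations, drugs, steroid conjugates, prostaglandins and other amphipathic anions, and many of them are best known from liver and kidney. Activated macrophages rely on glucose import and lactate export, and tissue macrophages clear nucleosides of engulfed cells.

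Processed signals are scanner intensities on a linear scale with background subtracted. Before differences were taken, the log2 signals of each array were set to that array's 75th percentile. The scanner software marks a spot as well above background or not, and 44.3% of non-control spots on MeXis null and 48.0% on WT were so marked. A difference was counted when it reached 2-fold and also exceeded the 95% limit of the scanner's own error. On 285 probes printed many times, the difference between arrays had a median SD of 0.47 between spots of one probe, so that a single spot could stray by 0.91. Differences also varied with the position on the array, and each is therefore given, where it matters, after subtracting the median difference of the 100 nearest spots, called local surface correction here. The MeXis probe read 8.44 on MeXis null and 12.3 on WT, not well above background on either array, so it gives no check of the labels; whether it lies in the deleted part is not given in the sources used here.

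All 9 general macrophage markers were well above background on both arrays, with differences from -0.86 (Csf1r) to 1.25 (Lyz2) and a median of 0.09. After local surface correction they ran from -0.82 to 0.52 with a median of 0.05. Dimmer probes were at 0.22 for Lyz2, 0.16 for Csf1r, and 0.80 and -0.51 for Cd68. Marker sums here add the uncorrected signals of each gene's brightest probe, as multiples of the array's 75th percentile. The sum of the 9 was 125 on MeXis null and 89.1 on WT. Of this Cd68 gave 52.7 on MeXis null and 32.8 on WT, and Lyz2 gave 48.1 on MeXis null and 20.2 on WT. Of 5 large peritoneal macrophage markers 3 were above background on both arrays (median 0.64, sum 0.597 on MeXis null and 0.697 on WT), while Timd4 and F5 were on neither. Fibroblast markers (6 of 7 above background on MeXis null and 7 of 7 on WT) summed to 3.48 on MeXis null and 2.07 on WT, of which Col1a2 gave 1.78 on MeXis null and 0.822 on WT. Their median was 0.93, with Col3a1 at -0.13 and Lum above background on WT only, where it measured 3.41-fold lower on MeXis null. All 6 mesothelial markers were above background on both arrays, higher on MeXis null with a median of 0.65, and summed to 0.496 on MeXis null and 0.219 on WT. B cell markers (4 of 5 on MeXis null and 5 of 5 on WT) summed to 0.215 on MeXis null and 0.587 on WT. The 4 were all lower on MeXis null, with a median of -1.13. After local surface correction the medians of the fibroblast, mesothelial and B cell markers were 0.80, 0.56 and -1.25.

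Other marker sums rested mostly on 1 gene each. Neutrophil markers (2 of 4 on MeXis null and 3 of 4 on WT, S100a9 on neither) summed to 3.25 on MeXis null and 5.44 on WT, of which Csf3r gave 3.14 on MeXis null and 5.31 on WT, and S100a8 was at -0.45. Eosinophil markers (1 of 5 on MeXis null and 2 of 5 on WT, with Epx, Prg2 and Ccr3 on neither) summed to 0.426 on MeXis null and 0.698 on WT, of which Siglecf gave 0.413 on MeXis null and 0.687 on WT. Mast cell markers (2 of 4 on MeXis null and 4 of 4 on WT) summed to 0.103 on MeXis null and 0.114 on WT, of which Tpsb2 gave 0.0874 on MeXis null and 0.0714 on WT. Cma1 and Cpa3, of the same list, were above background on WT only, Cma1 at least 2.34-fold lower on MeXis null and Cpa3 within its scanner error limit. Endothelial markers (3 of 5 on MeXis null and 4 of 5 on WT, Cdh5 on neither) summed to 1.60 on MeXis null and 1.44 on WT, of which Vwf gave 1.44 on MeXis null and 1.31 on WT. Pecam1 was above background on WT only and at least 2.25-fold lower on MeXis null, and Esam was at 1.11. T and NK cell markers (2 of 5 on each array, with Cd3g, Cd8a and Nkg7 on neither) summed to 0.219 on MeXis null and 0.217 on WT. The part of these cells in the transporter differences below was not tested. In pooled RNA, fewer cells that carry a transporter and less of its RNA per cell cannot be told apart.

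The results turn on a few probes, whose 60-base sequences are shown here 5′ to 3′ as deposited. Coordinates are those of the array files on mm9, which do not say whether a probe is in an exon. The Slco2b1 probe that carries the difference lies at chr7:106807008-106807067 on the minus strand, the strand of the gene in RefSeq (GRCm38.p6). The other Slco2b1 probe lies at chr7:106815871-106815930 on the plus strand, and was the only 1 of 128 probes with a strand to compare that ran opposite to its gene.
Slco2b1, probe on the gene's strand: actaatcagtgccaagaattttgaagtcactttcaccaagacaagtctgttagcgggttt
Slco2b1, probe on the opposite strand: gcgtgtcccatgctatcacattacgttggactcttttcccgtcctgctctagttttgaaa
The probe of Slc16a11 (chr11:70029833-70029892, plus strand) is shown because this monocarboxylate transporter gene had a bound far from 0 and was read from 1 probe.
Slc16a11: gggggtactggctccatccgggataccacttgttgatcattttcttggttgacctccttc

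Carnitine transporter probes are shown because a pair of them overlap in sequence. The brighter Slc22a5 probe is placed by the files at chr11:53678030-53678045, which covers 16 of its 60 bases. The dimmer Slc22a5 probe (chr11:53679058-53679117, minus strand) and the Slc22a21 probe (chr11:53764508-53764567, minus strand) share a longest run of 33 bases, given in capitals. Most of the lower-case bases before the capitals are also the same in both, offset by an added base in the Slc22a21 probe. The genes lie side by side with 0 protein-coding genes between them.
Slc22a5, brighter probe: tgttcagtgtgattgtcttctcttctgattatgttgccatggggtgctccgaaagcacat
Slc22a5, dimmer probe: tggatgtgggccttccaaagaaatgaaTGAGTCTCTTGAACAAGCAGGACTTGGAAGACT
Slc22a21: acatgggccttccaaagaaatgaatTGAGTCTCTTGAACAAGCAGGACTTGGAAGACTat
The Slc10a1 probe (chr12:82056539-82056598, minus strand) is shown because its sequence is that of B1, a short interspersed repeat found throughout the mouse genome and in many transcripts. Its capitals mark a 15-base run that was present, on either strand, in 7 of the array's 56605 probes and in 11 of 32851 RefSeq promoters (0.0335%).
Slc10a1: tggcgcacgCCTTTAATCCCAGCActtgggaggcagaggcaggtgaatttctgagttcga

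Of the 96 transporter genes, 37 were well above background on both arrays and 53 on neither. The 53 count Slc29a3, whose bright probe was detected by both arrays but carried an outlier mark. With such spots kept, the 37 become 38. Detection on a single array was seen for 1 gene in MeXis null and 5 genes in WT. Among the 37, 2 genes were at least 2-fold higher in MeXis null, of which the carnitine transporter Slc22a5 is described here. The 1 gene at least 2-fold lower was Slco2b1. By the same rule 7.68% of the 15474 genes detected by both arrays counted as higher and 4.56% as lower, so the counts of 2 and 1 of 37 are near the background. Beyond the spread between spots lay 2 higher and 1 lower of the 37, where the background was 9.41% and 5.72%. After local surface correction 0 of the 37 passed 2-fold in the higher direction and 3 in the lower one (Slco2b1, Slc16a14 and Slco4a1), where the background was 3.63% and 3.44%. The median difference of the 37 was 0.10, against 0.05 for all genes, and it was -0.07 after local surface correction, against -0.04 for all genes. Of the 37, 31 lay within 1.5-fold (83.8%), against 66.9% of all genes. At 1.5-fold the counts were 4 higher and 2 lower, where the background was 18.9% and 13.6%. The plots of signals, of differences and of all genes show that most transporters had like signals on both arrays. Slco2b1 stood apart from the others detected by both arrays.

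**Figure D1:**
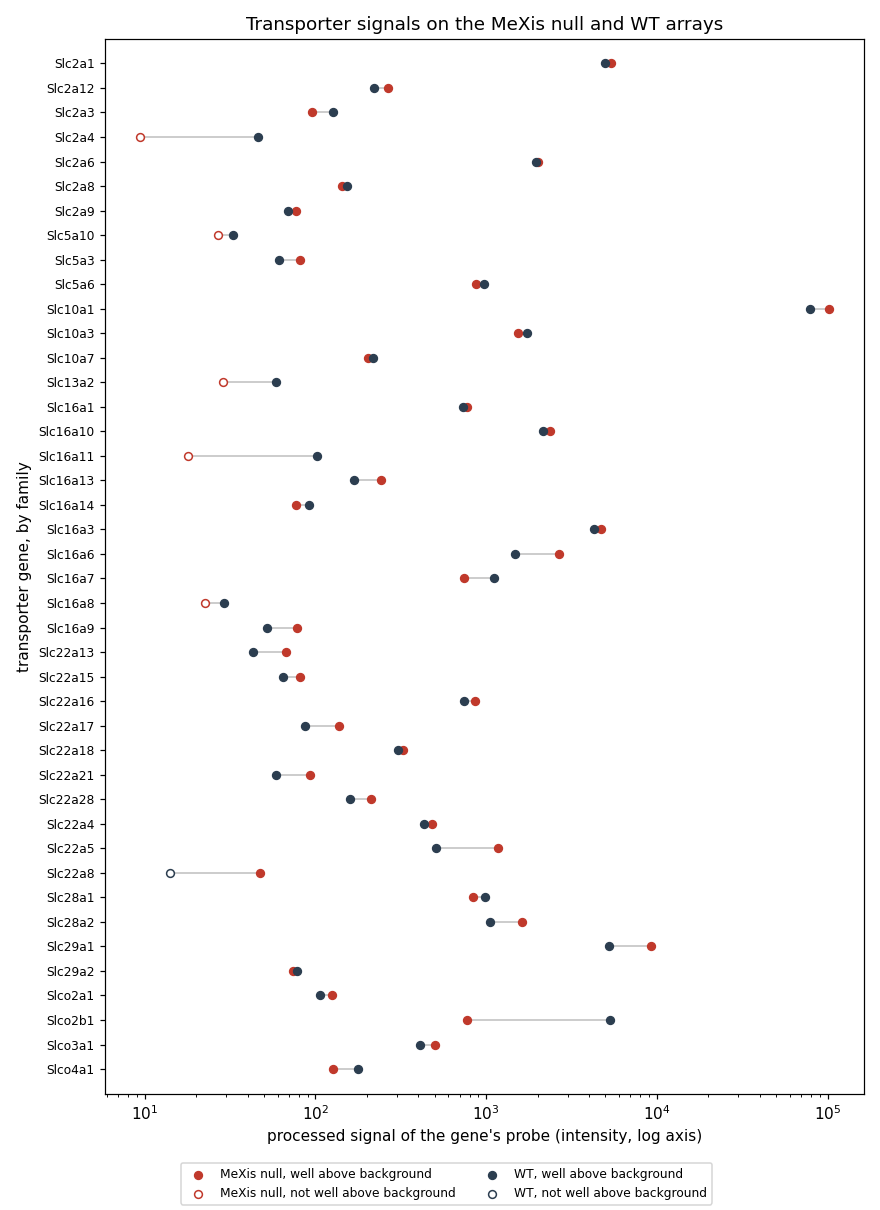
Processed signal of each transporter gene's brightest probe on MeXis null (red) and WT (dark) for 42 of the genes well above background on at least 1 array, on a log axis and ordered by family. Open points are not well above background. Slco2b1 read 770.0 on MeXis null and 5318 on WT, and most other genes have points that nearly touch.

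**Figure D2:**
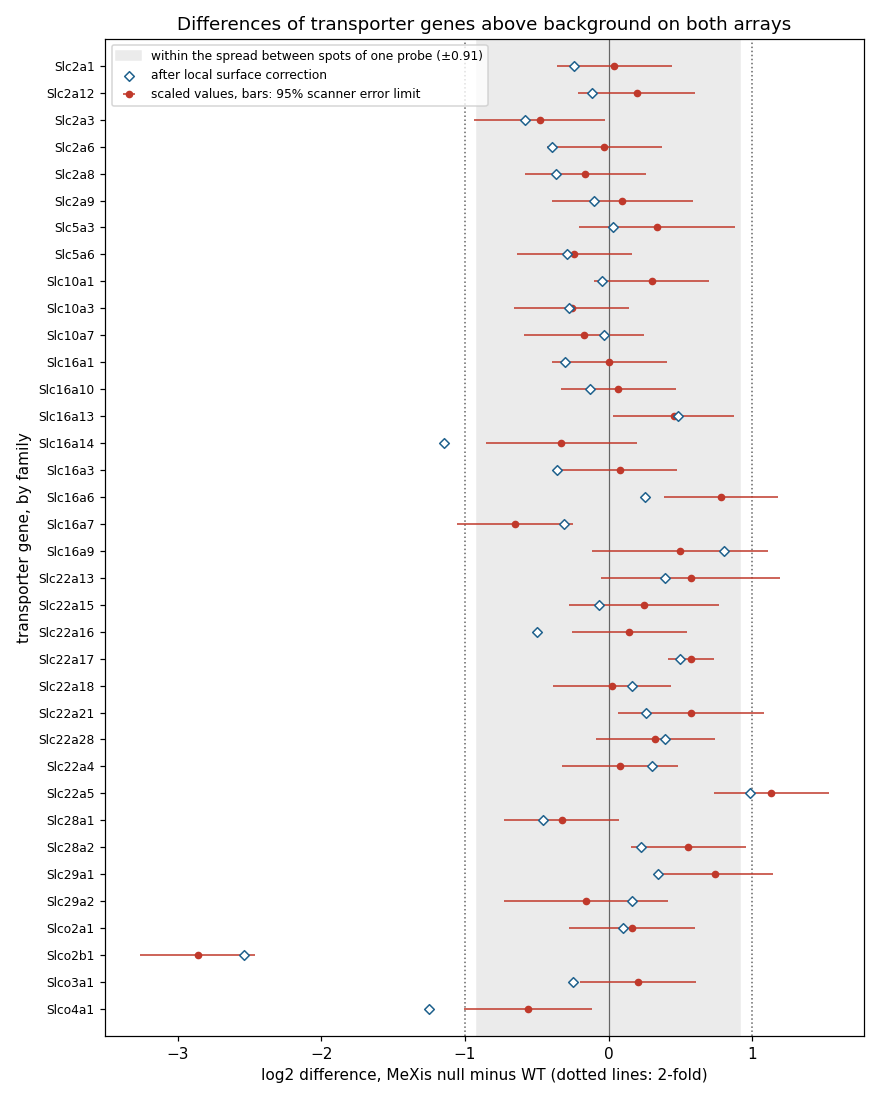
Log2 difference of MeXis null minus WT for 36 of the 37 transporter genes above background on both arrays, with bars for the 95% limit of the scanner error and diamonds for the value after local surface correction. The grey band of ±0.91 is the spread between spots of one probe; Slco2b1 and Slc22a5 lie outside it before correction.

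**Figure D3:**
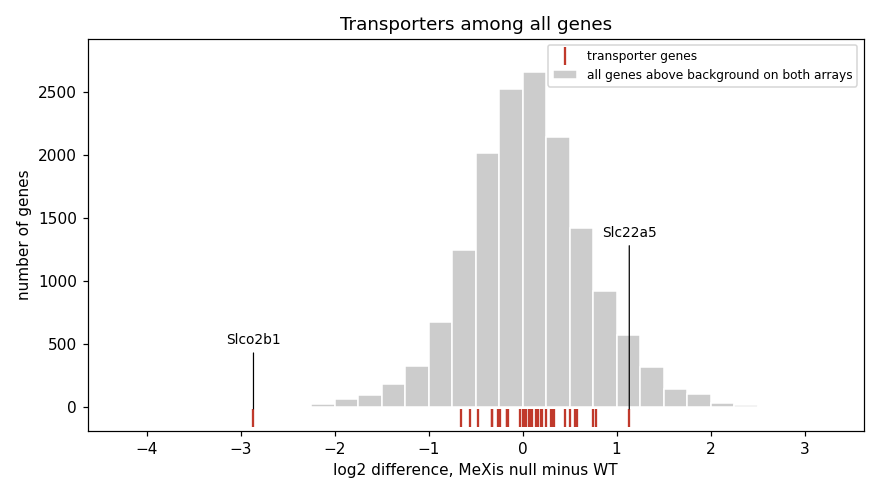
Number of genes (bars) by log2 difference of MeXis null minus WT over the 15474 genes above background on both arrays, with a red tick for 36 of the 37 transporter genes. The tick of Slco2b1 is at -2.86, and the next lowest tick, that of Slc16a7, is at -0.65. Transporters above background on WT only, among them Slc16a11, have no tick.

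Slco2b1, which encodes the organic anion transporter OATP2B1, a carrier of steroid sulfates and many drugs, read 770.0 on MeXis null and 5318 on WT. It was 7.27-fold lower on MeXis null, a difference of -2.86 with a scanner error of 0.21. Only 5 of the 15474 genes above background on both arrays had a lower difference. The spots around it were themselves lower on MeXis null by 0.32, and after local surface correction the difference was -2.54, with 8 genes lower. Under the 9 other scalings, corrections and probe rules run, it ranged from -3.51 to -2.54. The probe on the opposite strand read 35.2 on MeXis null and 41.4 on WT, was above background on WT only, and differed by -0.31, within its scanner error limit of 0.79. The value of Slco2b1 comes from 1 spot per array.

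Of the other 14 Slco genes, 3 were above background on both arrays, and none of them reached 2-fold at its brightest probe. Slco2a1, the prostaglandin uptake transporter, read 125 on MeXis null and 106 on WT, a difference of 0.16. Slco3a1, another carrier of prostaglandins and thyroid hormone, read 500.1 on MeXis null and 412 on WT at its brightest probe, a difference of 0.21, or -0.24 after local surface correction. Its 4 probes above background spread on both sides of 0, between -0.42 and 0.88. Slco4a1, which carries thyroid hormone and prostaglandins, read 126 on MeXis null and 177 on WT, a difference of -0.56, and of -1.25 after local surface correction. Its dimmer probe read 52.0 on MeXis null and 25.3 on WT, at 0.97, so the sign of Slco4a1 depended on the probe. The median of these 3 genes was 0.16, or -0.24 after local surface correction. The remaining 11 members of the family, among them the liver transporters Slco1a1, Slco1a4 and Slco1b2, were below the detection mark on both arrays.

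Among the monocarboxylate transporters of the Slc16 family, 9 of 14 genes were above background on both arrays, with a median difference of 0.08. Slc16a6 (MCT7) read 2667 on MeXis null and 1472 on WT, a difference of 0.78, and of 0.25 after local surface correction. Both values of Slc16a6 lay within the spread between spots.

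Of the lactate and pyruvate carriers, Slc16a1 and Slc16a3 differed less than Slc16a7 before local surface correction, each at its brightest probe. After it, Slc16a1 was at -0.30, Slc16a3 at -0.36 and Slc16a7 at -0.31. Slc16a1 (MCT1), which moves lactate and pyruvate in both directions, read 775 on MeXis null and 733 on WT, a difference of 0.01. Slc16a3 (MCT4), the lactate exporter of glycolytic cells, read 4724 on MeXis null and 4255 on WT, a difference of 0.08, or -0.36 after local surface correction. Both carriers need an accessory membrane protein, encoded by Bsg or Emb. Bsg read 3152 on MeXis null and 2196 on WT (0.45), and Emb read 6020.2 on MeXis null and 4948 on WT (0.21). Slc16a7 (MCT2), a carrier with high affinity for pyruvate, was lower on MeXis null at each of its 3 probes above background. These read 741, 404 and 416 on MeXis null, against 1104.8, 921 and 429 on WT in the same order, at differences of -0.65, -1.27 and -0.12. After local surface correction the same probes were at -0.31, -0.99 and -0.41.

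Slc16a11, a monocarboxylate transporter whose human gene is tied to type 2 diabetes by its variants, was well above background on WT only. It read 17.9 on MeXis null and 103 on WT, and was at least 3.96-fold lower on MeXis null when the dim side was set to the lowest signal well above background there (27.3). The next gene on the chromosome, Slc16a13, with 0 protein-coding genes between them, read 243 on MeXis null and 169 on WT, a difference of 0.45. With another background correction (normexp, with an offset of 50) the measured difference of Slc16a11 was -1.11 in place of -2.60. The offset is added to every signal, so a smaller difference at dim probes follows partly from the setting. Slc16a10, the aromatic amino acid transporter TAT1, read 2364 on MeXis null and 2142 on WT at its brightest probe, a difference of 0.07. Slc16a14 read 76.9 on MeXis null and 91.7 on WT (-0.33), and Slc16a9 read 77.9 on MeXis null and 52.4 on WT (0.50). After local surface correction Slc16a14 was at -1.15 and Slc16a9 at 0.81. Slc16a8, a lactate carrier of the retinal pigment epithelium, read 22.6 on MeXis null and 29.05 on WT and was above background on WT only.

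The glucose transporters of the Slc2 family showed no gene at 2-fold among the 6 of 12 that were above background on both arrays. Their differences ran from -0.48 to 0.20 with a median of 0.00, or -0.30 after local surface correction. Before that correction 3 of the 6 were above 0, and after it all 6 were below 0, from -0.58 to -0.10. Of all 15474 genes, 7287 were above 0 after it. Slc2a1 (GLUT1), the basal glucose importer, read 5407 on MeXis null and 4998 on WT, a difference of 0.04. Slc2a6 (GLUT6), a hexose transporter of intracellular membranes, read 2009.9 on MeXis null and 1951 on WT (-0.03). Slc2a3 (GLUT3), a glucose importer of high affinity, read 95.4 on MeXis null and 126 on WT, a difference of -0.48 that was 0.36 with normexp. Slc2a8 read 143 on MeXis null and 152 on WT (-0.16), and Slc2a12 read 266 on MeXis null and 220.3 on WT (0.20). Slc2a9, a urate transporter, read 77.4 on MeXis null and 68.8 on WT (0.10). Slc2a4 (GLUT4), the insulin-responsive transporter, read 9.38 on MeXis null and 46.1 on WT, above background on WT only, and its measured difference of -2.37 did not pass its scanner error limit of 2.87. The 5 others, Slc2a2, Slc2a5, Slc2a7, Slc2a10 and Slc2a13, were on neither array.

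Sodium-coupled carriers were mostly not detected. Of 11 Slc5 genes, Slc5a6, the uptake route for biotin and pantothenate, read 871 on MeXis null and 976 on WT, a difference of -0.24. Slc5a3, which takes up myo-inositol, read 81.1 on MeXis null and 60.9 on WT at its brightest probe. That is a difference of 0.34, or 0.03 after local surface correction. Its other probe was above background on WT only. Slc5a10, a mannose and fructose transporter of kidney, read 27.0 on MeXis null and 32.7 on WT and was above background on WT only. The other 8, among them the intestinal and renal glucose carriers Slc5a1 and Slc5a2, the iodide carrier Slc5a5 and the choline carrier Slc5a7, were on neither array. Of 5 Slc13 genes only Slc13a2, which carries citrate and other dicarboxylates, was detected, at 28.9 on MeXis null and 59.0 on WT. Above background on WT only, it measured 2.15-fold lower on MeXis null. This difference of -1.11 was -0.44 with normexp, whose offset shrinks differences of dim probes.

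In the Slc22 family all 9 genes above background on both arrays, of 25 members, had a difference above 0, from 0.03 to 1.13, as had 53.8% of all genes. Only 1 of the 9, Slc22a5, lay beyond the spread between spots. After local surface correction 7 of the 9 were above 0, as were 7287 of the 15474 genes, with Slc22a15 at -0.07 and Slc22a16 at -0.50. The median of the 9 was 0.32, against 0.05 for all genes, and 0.31 after local surface correction. Over the other scalings and corrections run, Slc22a5, Slc22a13, Slc22a17, Slc22a21 and Slc22a28 stayed above 0, while Slc22a4, Slc22a15, Slc22a16 and Slc22a18 were each below 0 in at least 1 of them. Slc22a5 (OCTN2), the high-affinity carnitine transporter, read 1172 on MeXis null and 507 on WT at its brighter probe. That is a 2.19-fold higher signal, a difference of 1.13, and of 0.98 after local surface correction. Its dimmer probe, which shares most of its sequence with the Slc22a21 probe, read 62.8 on MeXis null and 73.4 on WT, at -0.30. The Slc22a21 probe differed the other way. The median over both Slc22a5 probes was 0.42. Slc22a21, a carnitine carrier of mouse, read 92.5 on MeXis null and 58.9 on WT (0.58), and Slc22a4 (OCTN1), the ergothioneine transporter, read 480.5 on MeXis null and 432 on WT (0.08). The 3 carnitine acyltransferase genes listed beside them were above background on both arrays, with differences from -0.51 to 0.57, and none reached 2-fold.

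Slc22a17, which encodes a receptor for the iron-binding protein lipocalin 2, was printed 10 times on each array, and 8 of those positions carried no outlier mark. Over the 8 spots the signals ran from 99.0 through a median of 148 to 169 on MeXis null, against 69.6 through 83.1 to 130.1 on WT. The arrays overlapped, since the highest WT spot exceeded the lowest MeXis null spots. The mean difference was 0.57 ± 0.44 (SD over 8 spots of 1 array pair), and 7 of 8 positions were higher on MeXis null. The difference at single positions ran from just below 0 to 1.21. These spots share the same RNA and are no replicates of genotype.

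**Figure D4:**
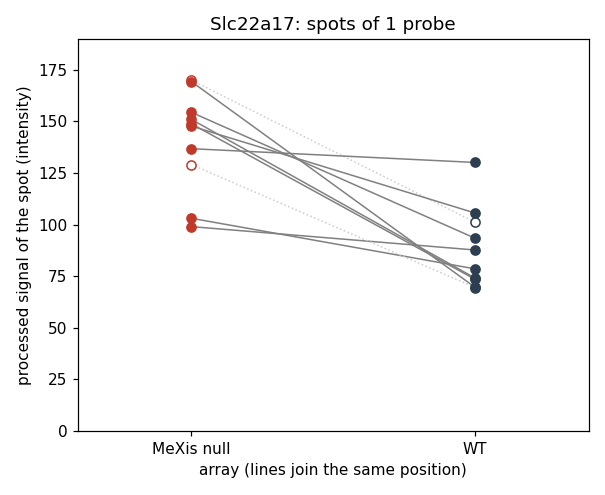
Processed signal at each of the 10 spots of 1 Slc22a17 probe on MeXis null (left) and WT (right), with lines joining the same position and open points and dotted lines for positions left out for an outlier mark. MeXis null spots that were used run from 99.0 to 169 and WT spots from 69.6 to 130.1, with overlap.

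The other Slc22 genes detected by both arrays differed by less than 2-fold at their brightest probe. Slc22a13, a urate and nicotinate transporter of kidney, read 67.1 on MeXis null and 42.9 on WT (0.57), and Slc22a16, a carnitine transporter of human testis, read 863 on MeXis null and 742 on WT (0.14, or -0.50 after local surface correction). Slc22a18, an imprinted gene, read 328 on MeXis null and 306 on WT (0.03), and Slc22a28 read 210.5 on MeXis null and 160 on WT (0.32). Slc22a15 differed by 0.25 at its brightest probe and by 1.64 at another, where it read 88.9 on MeXis null and 27.0 on WT. Slc22a8 (OAT3), an organic anion exchanger of kidney, read 47.4 on MeXis null and 14.1 on WT. Above background on MeXis null only, it measured 3.20-fold higher there. This difference of 1.68 was 1.26 after local surface correction and 0.49 with normexp, whose offset shrinks differences of dim probes. Of the 461 genes above background on MeXis null only, 85.7% had a bound of at least 2-fold. Among genes above background on WT only, 11.6% had a bound of at least 2-fold, as did 2 of the 5 transporters.

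Nucleoside transporters were detected in both families. Slc29a1 (ENT1), the main equilibrative nucleoside transporter, read 9252 on MeXis null and 5249 on WT, a difference of 0.74, and of 0.34 after local surface correction. Slc28a2 (CNT2), which concentrates purine nucleosides, read 1627 on MeXis null and 1052 on WT, a difference of 0.55, or 0.23 after that correction and -0.43 with normexp. Slc28a1 (CNT1), which concentrates pyrimidine nucleosides, read 832 on MeXis null and 991 on WT, a difference of -0.33 that was 0.65 with normexp. Slc29a2 (ENT2), another equilibrative carrier, read 73.7 on MeXis null and 78.1 on WT (-0.16). None of these 4 genes exceeded the spread between spots. Slc29a3 (ENT3), which releases nucleosides from lysosomes, had its bright probe left out because it carried an outlier mark. That probe read 2401 on MeXis null and 3070 on WT, a difference of -0.43. Slc28a3 and Slc29a4 were on neither array.

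Of 7 genes of the bile acid transporter family Slc10, 3 were above background on both arrays. Slc10a1 (NTCP), the bile acid importer of hepatocytes, read 102006 on MeXis null and 78638 on WT, a difference of 0.30, or -0.05 after local surface correction. This is the probe with B1 repeat sequence, and the other Slc10a1 probe read 8.88 on MeXis null and 3.9996 on WT, above background on neither. Which transcripts gave the signal was not tested. Slc10a3 read 1535 on MeXis null and 1743 on WT (-0.26), and Slc10a7 read 203 on MeXis null and 217 on WT (-0.17).

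At least 2 probes were above background on both arrays for 7 transporter genes. In 5 of these genes the probes differed in sign, and in 5 they lay more than 0.91 apart. Slco4a1 had the widest range, 1.53, followed by Slc22a5 with 1.43, Slc22a15 with 1.398, Slco3a1 with 1.29 and Slc16a7 with 1.15. Slc16a10 and Slc2a6, at 0.30 and 0.51, had narrower ranges.

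**Figure D5:**
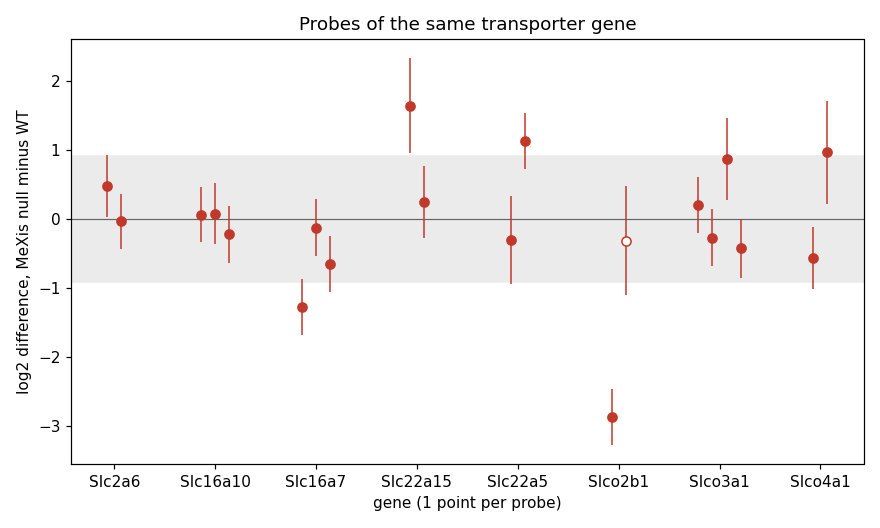
Log2 difference of MeXis null minus WT for each probe of the 7 transporter genes with several probes above background on both arrays, and for Slco2b1, with bars for the 95% limit of the scanner error. The open point is the Slco2b1 probe on the opposite strand, at -0.31 against -2.86 for the other, and the grey band is ±0.91.

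The 108 member probes above background on neither array had signals between 5.48 and 29.7 on MeXis null (median 7.90) and between 3.35 and 22.8 on WT (median 4.45). At these signals a difference was not detectable, and none is given. The 53 genes included the kidney carriers of organic cations and anions Slc22a2 and Slc22a6, and also Slco6b1, Slco6c1 and Slco6d1. Others of them were Slc5a8, Slc5a9, Slc5a11, Slc5a12, Slc10a2, Slc10a4, Slc10a5, Slc10a6, Slc13a1, Slc13a3, Slc13a4, Slc13a5, Slc16a4, Slc16a5, Slc16a12, Slc22a3, Slc22a7, Slc22a12, Slc22a14, Slc22a19, Slc22a20, Slc22a22, Slc22a23, Slc22a26, Slc22a27, Slc22a29, Slc22a30, Slco1a5, Slco1a6, Slco1c1, Slco4c1 and Slco5a1.

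Genes that work beside the transporters were listed too. Of 55 such genes 42 were above background on both arrays, 4 of them at least 2-fold higher on MeXis null (9.52%) and 2 at least 2-fold lower (4.76%). Both shares are near the 7.68% and 4.56% of all genes. The 42 had a median of 0.10, against 0.05 for all genes. The higher ones were Ptgr1, which reduces prostaglandins and leukotrienes and read 3320.5 on MeXis null and 1035 on WT (1.61), and 3 of the 12 nucleoside metabolism genes listed. Among these thymidine kinase Tk1 was at 1.03, purine nucleoside phosphorylase Pnp at 1.03 and adenosine deaminase Ada at 1.01. Tk1 read 389 on MeXis null and 180 on WT, Pnp 9954 on MeXis null and 4620 on WT, and Ada 297 on MeXis null and 140.2 on WT. Of the 9 nucleoside metabolism genes above background on both arrays, 5 were above 0 and 4 below, the lowest being Dck, a deoxycytidine kinase, at -0.66, with a median of 0.19. The brightest probes of Tk1, Pnp and Ada lay close to the threshold, and the other Tk1 probes above background on both arrays were at 1.09 and 1.75. After local surface correction Ptgr1 was at 1.03, Tk1 at 1.46, Pnp at 0.56 and Ada at 0.75, and a dimmer Ada probe was at -0.29 before it. Cda, which deaminates cytidine, and Sult1a1, a sulfotransferase, were above background on MeXis null only and measured 3.11-fold and 3.70-fold higher there. These differences of 1.64 and 1.89 were 1.16 and 1.56 after local surface correction.

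The lower ones were the organic anion exporter Abcc3, which read 2138 on MeXis null and 6358 on WT (-1.65, or -1.34 after local surface correction), and the glucose-sensing factor Mlxipl (ChREBP). Mlxipl read 274 on MeXis null and 571 on WT, at -1.13, or -0.90 after that correction. A dimmer Mlxipl probe was at -1.06. Txnip, a glucose-induced gene whose product limits glucose uptake, differed by 0.06 at its brighter probe and by 0.79 at its dimmer one, or by -0.24 and -0.08 after that correction. Hpgd, which degrades prostaglandins taken up by Slco2a1, read 39.2 on MeXis null and 16.1 on WT. It was above background on MeXis null only and measured 2.31-fold higher there.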

How the data were processed

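Per the file headers, the deposited intensity values were made with Agilent Feature Extraction 11.5.1.1, which subtracted background and detrended each array, on a design with mm9 coordinates. The series matrix, also deposited as intensity, matched those values exactly at all 62976 features of both arrays. No spot was saturated. Spots with an outlier mark (205 on MeXis null and 305 on WT) and control spots were left out, and spots of one probe were averaged as log2 values. Each array was scaled to its 75th percentile over probes detected above background by both, and a gene was read from its brightest probe. Probes were named through RefSeq (GRCm38.p6): 32994 by accession, 10224 by symbol and 520 by synonym, with the file's own name kept for 12867. Genes detected by a single array got a bound on their fold. The dim side took its own signal or, if higher, the smallest signal called well above background (27.3 on MeXis null, 12.1 on WT). Where the dim side kept its own signal, the bound is the measured fold and not a lower limit, and is worded as measured. Calls need a 2-fold difference, as the log2 difference of the deposited intensity values, and the 95% scanner error limit. No replicate test was possible. Normexp used limma 3.58.1 and the other steps Python 3.11.15. Normexp started from the mean and background signals of each spot, without the detrending, and added an offset of 50. Its values therefore differ from the others by more than the background step, and it is no check on differences of dim probes. The calling step was also run on simulated data, but no result of that run is given here and no error rate is drawn from it. The precision is limited by the number of arrays, 1 per genotype. Alternatives were normexp background correction, quantile, loess, median and all-probe scaling, local surface correction, the series matrix, kept outlier spots, the median of a gene's probes, other dim filters and other thresholds. The members, lists, rules and alternatives were chosen with earlier results of these data known, and 2 alternatives were added after seeing the present values. The genes named were all members above background on at least 1 array, except 1 that is not reported here though it stays in the counts, and of the genes beside them those past 2-fold and Bsg, Emb, Txnip and Hpgd where above background. The 1 member probe with an outlier mark is described too, outside this rule, as are Dck and the markers named singly, all chosen after their values were seen.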

Additional observations from a re-analysis of the deposited data

How the results depend on the processing

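The difference of Slco2b1 was below -2.5 under every scaling, correction and probe rule run, and was furthest from 0 with normexp, at -3.51. Of 372 single-gene values over 42 member genes, 354 moved by less than the SD of 0.47 between spots of one probe and 18 moved further. The 372 leave out Slco2b1, which moved further with normexp. Values from the series matrix could not move, since they are the same intensities. Median and all-probe scaling shift every gene by the same amount. The count of 354 is therefore partly fixed by the settings chosen. The 2 transporters at least 2-fold higher in MeXis null became 1 with normexp or with the median of a gene's probes. They became 0 after local surface correction or at 3-fold, 4 at 1.5-fold, and 3 of 96 without a filter on dim probes. The 1 transporter at least 2-fold lower became 2 with normexp or at 1.5-fold. It became 3 without a filter on dim probes and 3 after local surface correction, counted at 2-fold or beyond the corrected spread between spots (±0.64). Beyond that spread the higher count was 2, but not of the same genes: these were Slc22a5 (0.98) and Slc16a9 (0.81), and Slc16a9 was within 2-fold before correction. The median of 0.10 became -0.066 after local surface correction and 0.50 without the filter, where the median of all genes was 0.47. Among the genes listed beside the transporters, the 4 higher became 7 with normexp or without the filter, 9 at 1.5-fold and 2 after local surface correction. They became 1 with quantile, loess, median or all-probe scaling or at 3-fold. The 2 lower became 3 with normexp, 8 at 1.5-fold and 5 beyond the corrected spread between spots (where 3 were higher). They became 1 after local surface correction or at 3-fold. The median of the listed genes, 0.10, became 0.0064 with loess, 0.028 with all-probe scaling and 0.19 without the filter. The causes of these changes were not tested. Over all 15474 genes, 1189 higher and 705 lower became 562 and 532 after local surface correction and 891 and 804 with normexp. They became 999 and 841 with quantile, 942 and 866 with loess, 1010 and 822 with median and 978 and 855 with all-probe scaling. With the median of a gene's probes they were 1030 and 520, and without the filter 1819 and 957 of 36921 genes. No such count is given at 3-fold or beyond the corrected spread. The counts beyond the corrected spread and those without Slc10a1 were chosen after seeing the data. Leaving out Slc10a1 changed neither count of transporters. No paired analysis was possible because each genotype had 1 array. With 1 array each, the spread between mice or cultures is unknown, and signals not well above background carry no order.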
